A study of Mus musculus with 12 samples.

Results

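Lx elements are rodent members of the LINE-1 (L1) family of retrotransposons. The Lx elements described here are the repeat entries of class LINE/L1 whose name starts with Lx and which carried a methylation level in all 12 libraries. There were 1183 of them in 21 named subfamilies, among 2759 Lx entries with a level in at least 1 library and 133311 features of all kinds with a level in every library. They made up 3.41% of the 34707 repeat entries common to all libraries.

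The assay was reduced representation bisulfite sequencing (RRBS), in which MspI digestion enriches CpG-rich fragments and bisulfite treatment separates methylated from unmethylated cytosines. All samples were labelled C57BL6, in 6 groups of 2 libraries. Female embryonic stem cell (ESC) lines came from fertilized embryos, and parthenogenetic ESC (pESC) lines from activated oocytes, so that pESCs have only a maternal genome. According to the study, both kinds of line carried an Actin-GFP transgene and were kept in serum with LIF on feeder cells, and for several passages before induction in a medium with LIF and inhibitors (t2iL). The labels do not say from which of these cultures the stem cell libraries were made. Primordial germ cells (PGCs), the embryonic precursors of oocytes and sperm, came from female embryos of 2 ages, embryonic day 9.5 (E9.5) or 12.5 (E12.5), and enriched with antibodies to SSEA1 alone or to SSEA1 and CD61. PGC-like cells (PGCLCs) were induced from either kind of line through 2 days of epiblast-like culture with activin A and bFGF and 4 days with BMP4, SCF, EGF and LIF, and were sorted as SSEA1 and CD61 double-positive cells. Epiblast-like cells were not measured. The labels do not say whether the 2 libraries of a group came from separate lines or embryos, so p-values measure only the spread between these libraries.

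L1 elements copy themselves through an RNA that is transcribed from a promoter at their 5′ end. Most genomic copies lost that end when they were inserted and can no longer move. Lx is an old family that spread before mouse and rat separated, and CpG methylation is one of the ways in which cells keep L1 promoters silent. PGCs lose most of their DNA methylation while they migrate to and settle in the gonad.

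Each Lx entry is named by its subfamily and a range. The range was read here as the stretch of the subfamily's consensus that the entry covers, which the sources do not state, so that Lx8:6616-7031 covers consensus positions 6616 to 7031 of Lx8. The name gives no genome position, and copies that share a name and a stretch cannot be told apart. Entries are called elements below. Their median length was 533 bp of consensus (range 22 to 6562), and 1028 of the 1183 (86.9%) started after consensus position 5500, which is the 3′ part of an L1. Only 5 were over 5000 bp long. The number of elements per subfamily ranged from 16 in Lx10 to 225 in Lx8.

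The deposited files hold the methylated fraction of each entry without read counts, so the depth behind a level is unknown and no counting interval could be given. Of 14196 Lx levels, 37 were exactly 0% and 26 exactly 100%. The replicates of a group differed at an Lx element by a median of 2.08 percentage points in E9.5 PGCs, 4.70 points in pESCs and between 3.03 and 3.43 points in E12.5 PGCs and both PGCLC groups. The ESC replicates stood apart with a median difference of 9.96 points, and 158 Lx elements differed by at least 20 points between them. The median level over all features ranged from 11.2% to 35.1% across libraries, so whole libraries differed in level as well as single elements. The main values that rest on the ESC libraries are therefore also given without each of them, and directions are also given with every library set to a common median (centring).

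The mean level over the 1183 Lx elements was 64.0% in both E9.5 PGC libraries. It was 42.7% and 43.2% at E12.5. ESC-PGCLCs had 52.8% and 53.0%, and pESC-PGCLCs 49.4% and 48.4%. The pESC libraries had 44.9% and 42.6%, and the ESC libraries 49.6% and 39.8%. In order of their means, E9.5 PGCs (64.0% ± 0.0549, SD, n = 2) were above ESC-PGCLCs (52.9% ± 0.168), pESC-PGCLCs (48.9% ± 0.721), ESCs (44.7% ± 6.90), pESCs (43.7% ± 1.66) and E12.5 PGCs (42.9% ± 0.403). The first 3 did not overlap each other. ESC replicate 1 lay above both pESC-PGCLC libraries and replicate 2 below every other library, so the ESCs could not be placed among pESC-PGCLCs, pESCs and E12.5 PGCs. With 2 libraries against 2, the exact two-sided permutation test cannot give a p below 0.333, which was its value for every pair of groups that did not overlap.

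**Figure D1:**
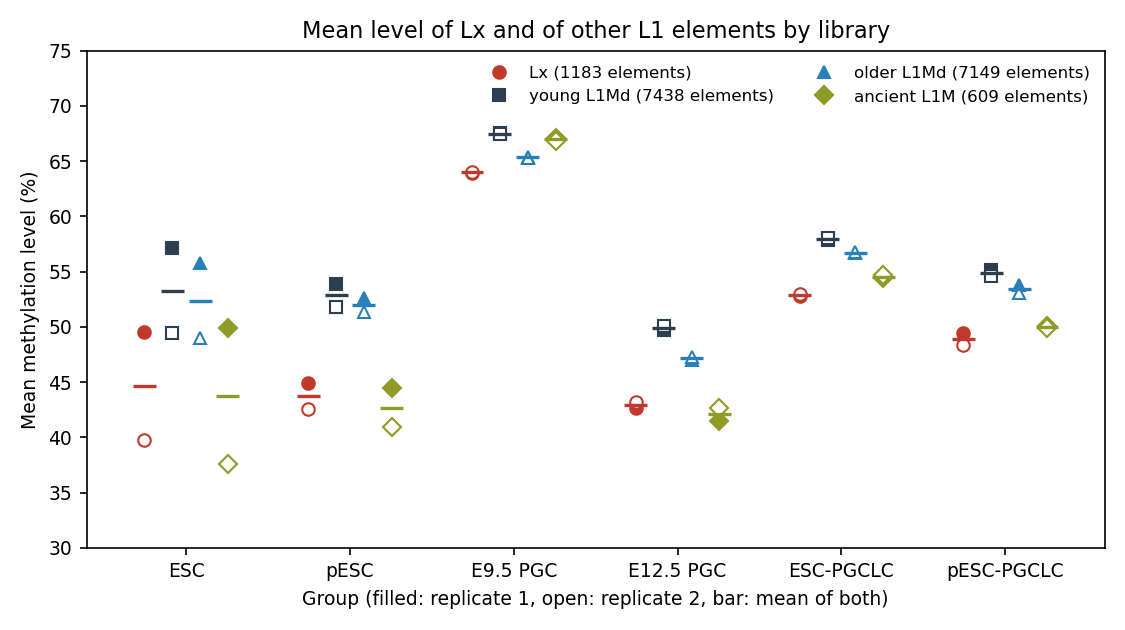
Mean methylation level in percent (vertical axis, shown from 30 to 75) of the 1183 Lx elements and of 3 other lists of L1 elements in each of the 12 libraries, with replicate 1 filled, replicate 2 open and a bar at the mean of both. The E9.5 libraries had Lx means of 64.0% and the E12.5 libraries of 42.7% and 43.2%, and Lx lay under those of both L1Md lists in every library.

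The first comparison asked how Lx methylation changed in PGCs between E9.5 and E12.5, when they colonize the gonad. It fell by 21.1 points on average, so that 67.1% of the E9.5 level was left at E12.5. limma with Benjamini-Hochberg adjustment called 1009 of the 1183 elements (85.3%), all of them lower at E12.5, where a call needed an adjusted p under 0.05 and a difference of at least 10 points. Of all 137202 features tested, 49.6% were called (49.6% lower and 0.0350% higher). Of the 37202 repeat entries among them 84.9% were called, close to the share of Lx. With or without a call, 1170 elements had a lower mean at E12.5 and 13 a higher one. After centring, 17 Lx elements were called higher and 227 lower, while of all 137202 features 46276 were called higher and 17313 lower. The median difference was -20.5 points over Lx elements, -19.5 points over all repeat entries and -11.5 points over all features. Relative to the mean of all repeat entries of each library, the Lx mean differed by -0.907 points between the stages.

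The upper end of the distribution emptied. In both E9.5 libraries 390 Lx elements had at least 70%, against 7 in both E12.5 libraries. The standard deviation over elements fell with the mean, from 15.7 points at E9.5 to 12.1 points at E12.5. The lower end moved little. When elements were grouped by their level in E9.5 replicate 1 and read in the other libraries, the 19 elements under 20% had 11.5% in E9.5 replicate 2, and 10.5% and 7.35% in the E12.5 libraries. The 147 elements of at least 80% had 85.2% in E9.5 replicate 2, and 56.3% and 58.3% at E12.5. The share left at E12.5 was 77.3% in the lowest of these bins, 68.7% between 40% and 60%, 65.9% between 60% and 80%, and 67.2% in the highest.

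The E9.5 levels had a pair of peaks, in both libraries. Between 50% and 55% lay 198 elements in replicate 1 and 191 in replicate 2, and 122 of these were the same elements. The bin below, from 45% to 50%, held only 51 and 55, and the bin from 55% to 60% held 103 in each library. Numbers rose again to 187 and 188 between 65% and 70%. The lower peak was not particular to Lx, since 15.5% and 15.8% of all repeat entries also lay between 50% and 55% in these libraries. The 122 elements of the lower peak had 37.0% and 37.6% at E12.5, and 44.2% and 44.4% in ESC-PGCLCs. The 699 elements with at least 60% in both E9.5 libraries had 48.3% and 49.2% at E12.5, and 60.01% and 60.1% in ESC-PGCLCs.

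**Figure D2:**
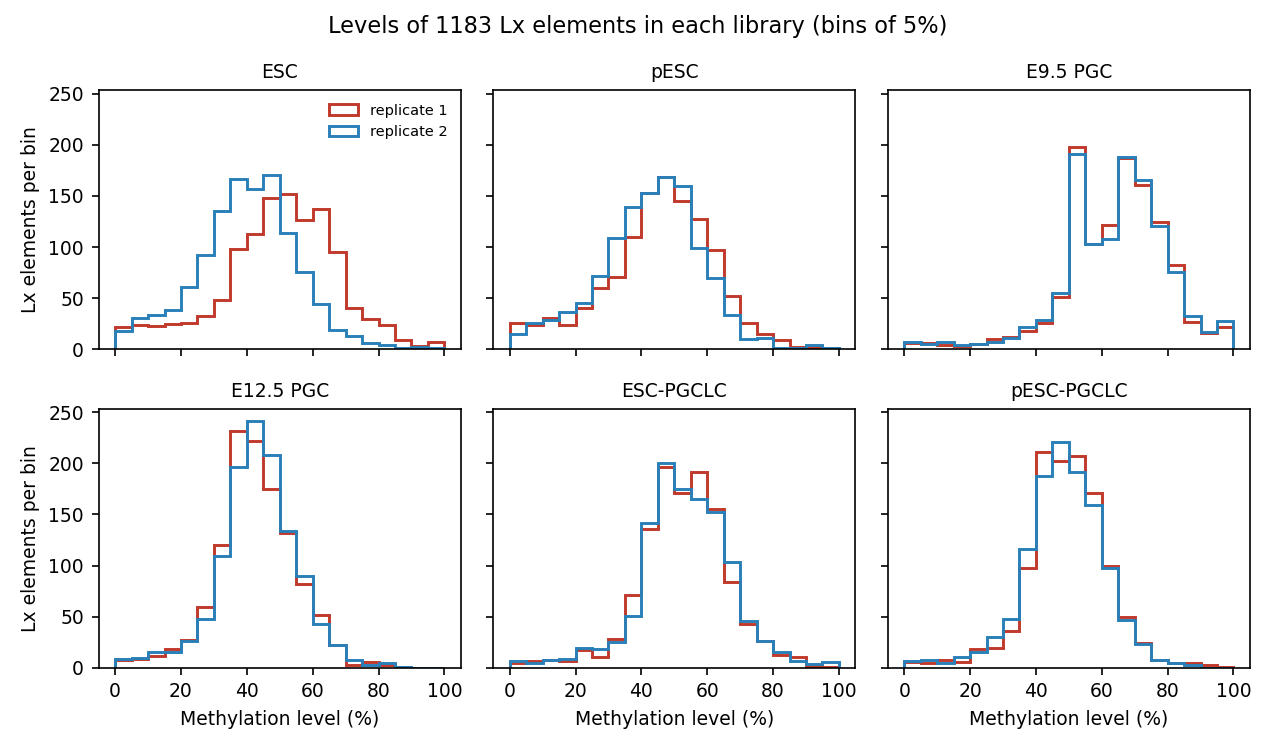
Number of Lx elements (vertical axis) in bins of 5% methylation (horizontal axis) in each library, with replicate 1 in red and replicate 2 in blue, for the 1183 elements with a level in all libraries. E9.5 PGCs show a peak between 50% and 55% and another above 65%, E12.5 PGCs a single narrow peak, and the ESC replicates are shifted against each other.

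All 21 subfamily means were lower at E12.5 than at E9.5, without overlap of the libraries, but by different amounts. The differences of Lx9 and Lx8b were the largest. Lx9 (82 elements) had 66.6% and 67.9% at E9.5, then 41.5% and 42.1% at E12.5, a difference of -25.4 points. Lx8b (63 elements) went from 67.3% and 67.4% to 42.1% and 43.8%, a difference of -24.4 points. The smallest changes were those of Lx2A1 and of Lx without a number. Lx2A1 (32 elements) had 57.5% and 57.8% at E9.5, then 42.3% and 42.5% at E12.5, a difference of -15.2 points. Lx (70 elements) went from 59.6% and 59.9% to 42.6% and 42.9%, a difference of -17.0 points. The means of these 4 subfamilies thus ran from 57.7% to 67.3% at E9.5 and from 41.8% to 42.9% at E12.5. In the other groups, Lx9 had 50.1% and 37.8% in ESCs and 44.2% and 41.5% in pESCs. Lx8b had 47.8% and 36.5% in ESCs, 42.4% and 40.3% in pESCs, 53.6% and 53.5% in ESC-PGCLCs against 49.7% and 49.5% in pESC-PGCLCs.

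The same held across all subfamilies. The standard deviation over the 21 subfamily means was 3.19 and 3.44 points in the E9.5 libraries and 1.4 and 1.6 points in the E12.5 libraries. At E9.5 the means spanned 12.5 points, from Lx2A1 (57.7%) to Lx5b (70.2%), and at E12.5 they spanned 5.02 points, from Lx5c (41.7%) to Lx4A (46.7%). The subfamily means of ESC-PGCLCs spanned 8.17 points and those of pESC-PGCLCs 6.04 points.

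**Figure D3:**
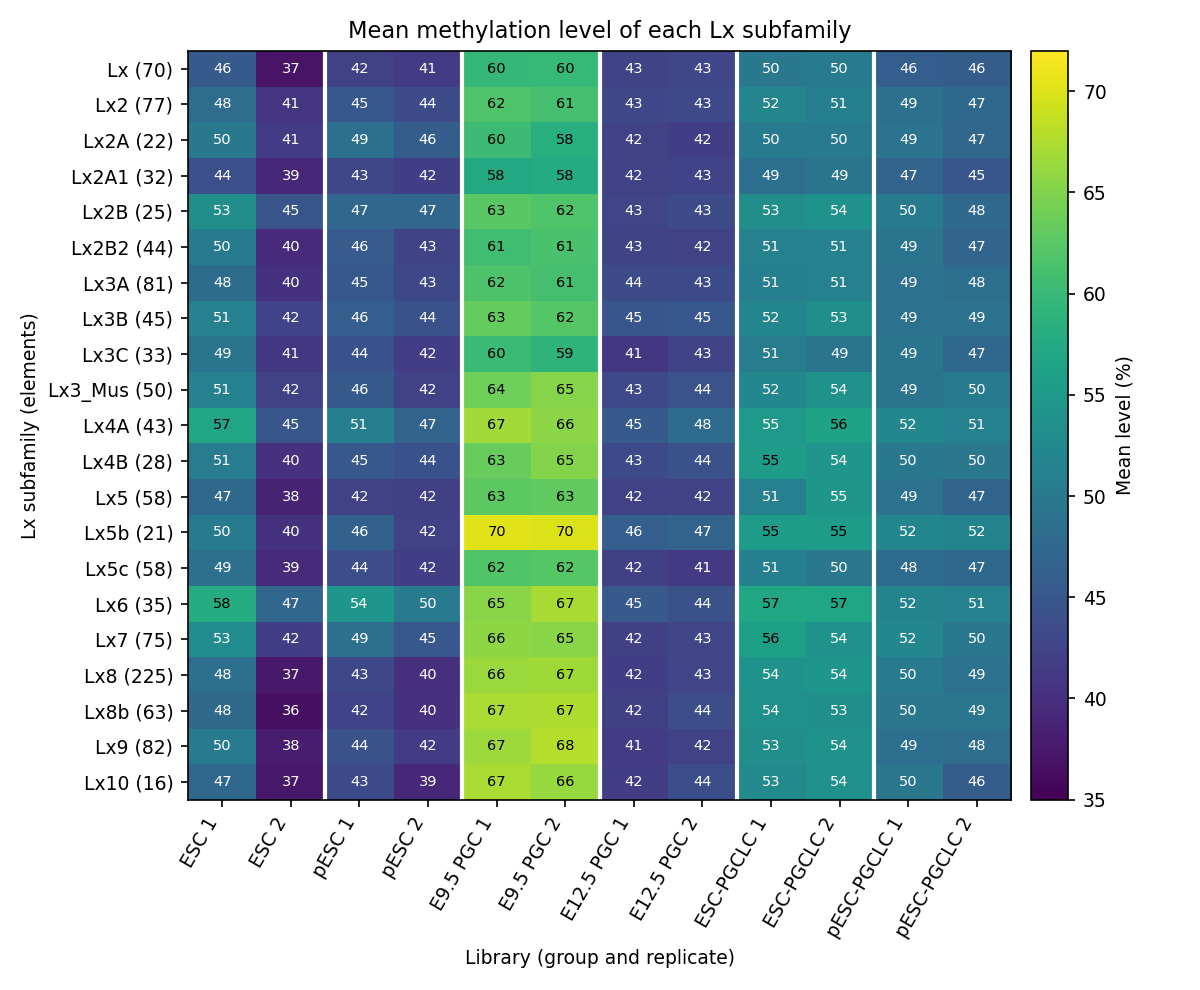
Mean methylation level in percent (colour and printed value) of each of the 21 Lx subfamilies (rows, with the number of elements) in each of the 12 libraries (columns). The E9.5 columns run from 58% in Lx2A1 to 70% in Lx5b, and the E12.5 columns from 41% to 48%.

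The E9.5 level and the size of the fall tended to grow with the number in the subfamily name. Elements without a number had 59.7% at E9.5, those of Lx2 names 60.6%, Lx3 62.1%, Lx4 65.4%, Lx5 63.6%, Lx6 66.3%, Lx7 65.6%, Lx8 66.8%, Lx9 67.2% and Lx10 66.7%. The E12.5 levels of the same classes lay between 41.8% and 45.5% with no such order. The difference between the stages therefore grew from -17.0 points without a number to -17.9, -18.5, -19.9, -21.0, -21.5, -23.2, -24.3 and -25.4 points for the numbers 2 to 9, and was -24.0 points in the 16 elements of Lx10. The share of the E9.5 level that was left went from 71.5% without a number to 62.2% in Lx9. The SD between replicates was 1.21 points at most in a class at E9.5 (Lx6) and 1.54 points at most at E12.5 (Lx10).

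The classes also differed in where their elements lay on the consensus and in how many fell into the lower E9.5 peak. Among elements that started between positions 6001 and 6500, the difference was -16.9 points without a number (44 elements), -17.9 points in Lx3 names (73 elements), -22.9 points in Lx8 names (70 elements) and -26.0 points in Lx9 (14 elements). Lx4 names (21 elements) had -21.7 points there, but Lx5 names (33 elements) only -19.9 and Lx7 names (7 elements) -19.7, against the order. Between positions 6501 and 7000 the difference was -17.7 points in Lx2 names (47 elements), -25.3 points in Lx8 names (138 elements) and -22.7 points in Lx9 (32 elements). In the lower E9.5 peak lay 20% of the elements with Lx2 names and 18.6% of those without a number, against 5.56% with Lx8 names and 3.66% of Lx9. Among elements with at least 60% in both E9.5 libraries, the difference was -23.0 points without a number, -22.7 points in Lx2, -28.2 points in Lx8 and -27.5 points in Lx9. It was -22.2 points in Lx3 and -22.3 points in Lx4, so that up to Lx4 it did not grow with the number. The part of consensus position in the order of the classes was not tested beyond these values.

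**Figure D4:**
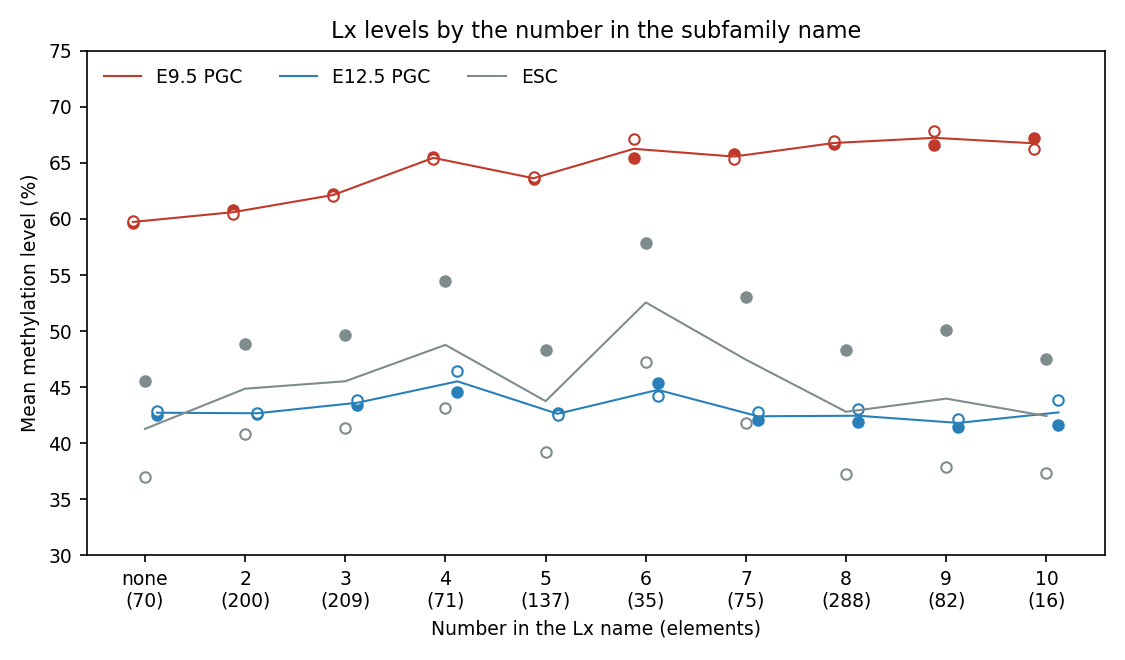
Mean methylation level in percent (vertical axis, shown from 30 to 75) of Lx elements grouped by the number in their subfamily name (horizontal axis, with the number of elements), with replicate 1 filled, replicate 2 open and a line through the means. The E9.5 means rise from 59.7% without a number to 67.2% in Lx9, while the E12.5 means stay between 41.8% and 45.5%.

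Position along the consensus gave a second difference. The 48 elements that started within the first 500 positions, where the L1 promoter lies, came from 16 subfamilies, with the most (7) from Lx3_Mus. They were more methylated than the other 1135 elements in 12 of 12 libraries. At E9.5 they had 72.1% and 72.5% against 63.6% and 63.7%, and at E12.5 53.0% and 51.9% against 42.2% and 42.9%. In ESCs they had 59.8% and 52.1% against 49.1% and 39.3%. The difference ranged from 8.49 points in E9.5 replicate 1 to 12.8 points in ESC replicate 2. Between the PGC stages they changed by -19.9 points, and 45 of the 48 (93.8%) were called lower. Of all Lx elements 85.3% were called, and of all features 49.6%. Their median length was 991.5 bp, and longer Lx elements were called more often. The share was 72.7% up to 200 bp and 90.4% from 1001 bp. The 28 elements that started between positions 501 and 4000 had the lowest E9.5 mean of the 7 position classes, at 58.0% ± 0.976 (SD, n = 2). The 124 elements that started after position 7000, which came from 8 subfamilies, had means of 64.0% in E9.5 and 40.2% in E12.5 PGCs, the largest difference of the position classes at -23.8 points.

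**Figure D5:**
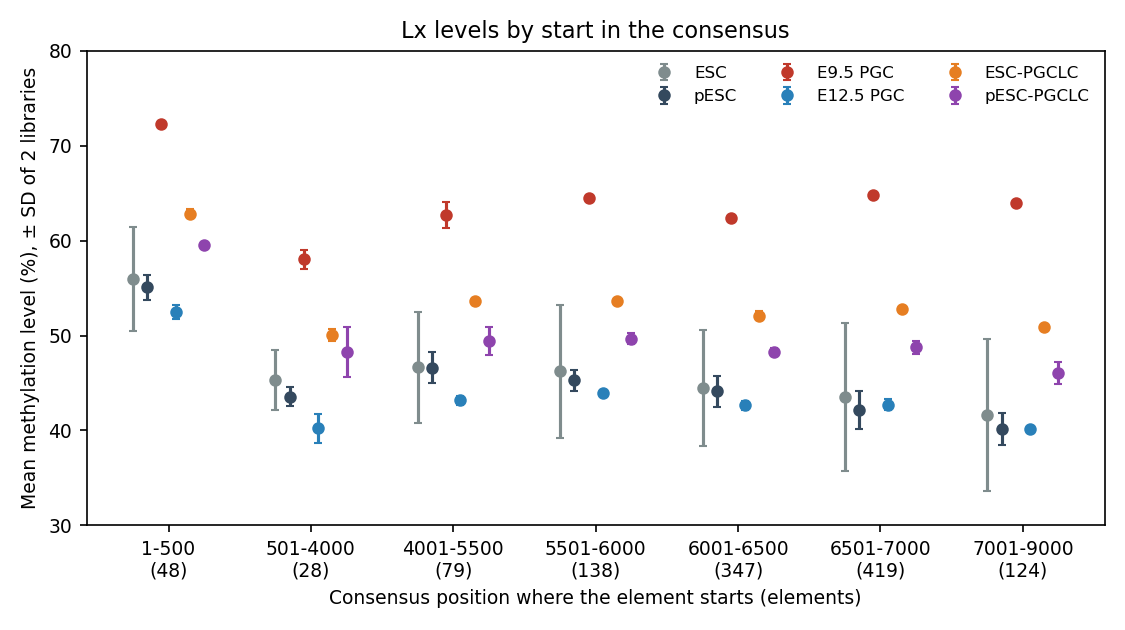
Mean methylation level in percent (vertical axis, shown from 30 to 80) of Lx elements grouped by the consensus position at which they start (horizontal axis, with the number of elements), with points for the 6 groups and bars for the SD of 2 libraries. The 48 elements that start within position 500 have the highest mean in each group, with 72.3% in E9.5 and 52.5% in E12.5 PGCs.

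The second question was how close PGCLCs came to either stage of PGC. Lx elements in PGCLCs lay between the stages. In ESC-PGCLCs the mean was 11.1 points lower than at E9.5 and 9.95 points higher than at E12.5. In pESC-PGCLCs it was 15.1 points lower than at E9.5 and 5.96 points higher than at E12.5. Each of the 21 subfamilies lay between the stages in both kinds of PGCLC, without overlap of the libraries. The repeat entries as a whole did so too, with median differences of -9.59 and -13.2 points from E9.5 in ESC-PGCLCs and pESC-PGCLCs and of 9.62 and 6.02 points from E12.5. Relative to the mean of all repeats, the Lx mean of ESC-PGCLCs differed by -0.442 points from E9.5 and 0.465 from E12.5, and that of pESC-PGCLCs by -0.710 and 0.197 points.

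Against E9.5 PGCs, limma called 558 Lx elements lower and 3 higher in ESC-PGCLCs, where 29.8% of all features were called (29.6% lower and 0.168% higher), and 811 lower and 3 higher in pESC-PGCLCs, where 40.3% were called (40.2% lower and 0.127% higher). Those calls were 47.4% and 68.8% of Lx elements, where 41.4% and 62.7% of repeat entries were called. Against E12.5 PGCs the Lx shares were 36.4% and 11.7%, and the repeat shares 39.7% and 12.5%. There limma called 425 Lx elements higher and 6 lower in ESC-PGCLCs (of all features 22.8% were called, 22.2% higher and 0.523% lower), and 133 higher and 6 lower in pESC-PGCLCs (of all features 7.10%, 6.81% higher and 0.287% lower). The last count was weak, as was the count over all features. A fit of all 12 libraries called 7 Lx elements, and 619 of all 133311 features. Both counts also fell far without any 1 of the E12.5 or pESC-PGCLC libraries. The median Lx difference then stayed between 5.50 and 6.20 points. The count of ESC-PGCLCs against E9.5 PGCs was 362 in the fit of all 12 libraries, and that against E12.5 PGCs was 172. Over all features that fit called 29191 and 13297. After centring, the same 4 comparisons gave 30 higher and 71 lower, 21 higher and 137 lower, 80 higher and 13 lower, and 9 higher and 5 lower. Over all 137202 features centring gave 23524 higher and 6093 lower, 37320 and 11613, 6308 and 1880, and 762 and 374. These comparisons share their PGC libraries.

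Single elements also had means outside those of the PGC stages. In ESC-PGCLCs 79 elements had a lower mean than at E12.5 and 65 a higher one than at E9.5, and in pESC-PGCLCs these were 162 and 28, few of them called. The following were picked from the calls after their values were seen. Lx4A:6316-7058 had 93.8% and 94.4% at E9.5, then 75% and 81.2% at E12.5, but 58.6% and 56.6% in ESC-PGCLCs against 51.2% and 59.5% in pESC-PGCLCs. Both kinds of PGCLC were called lower than E12.5 PGCs there, by 20.5 and 22.8 points. The ESC and pESC libraries had between 41.2% and 68.3% at this element. Lx3_Mus:6676-7009 had 36.8% and 43.4% at E12.5, 22.4% and 17.2% in ESC-PGCLCs and 26.5% in both pESC-PGCLC libraries. Among the few called higher in PGCLCs than at E9.5 was Lx2B2:6749-6985, which was at 0% in both E9.5 libraries and had 30.3% and 30% in ESC-PGCLCs against 52.9% and 37.5% in pESC-PGCLCs. It had 0% and 19.0% at E12.5, 62.5% and 36.8% in ESCs, and 51.2% and 37.8% in pESCs. Its call in ESC-PGCLCs was lost without any 1 of the 4 libraries compared.

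The third comparison asked what induction changed, from the stem cells to the PGCLCs. ESC-PGCLCs exceeded ESCs in the Lx mean by 8.22 points, and pESC-PGCLCs exceeded pESCs by 5.16 points, with no overlap of the libraries in either. Without ESC replicate 1 the first difference was 13.1 points, and without ESC replicate 2 it was 3.34 points. In ESC-PGCLCs 165 Lx elements were called higher and 5 lower than in ESCs (of all features 14.6% were called, 13.7% higher and 0.899% lower). After centring the direction turned, to 63 higher and 353 lower, as it did over all 136848 features, with 7115 higher and 64244 lower. In pESC-PGCLCs 100 were called higher and 6 lower than in pESCs (of all features 9.66%, 8.91% higher and 0.746% lower). This also turned, to 55 higher and 323 lower, with 5935 higher and 39608 lower over all features. The first count rose without ESC replicate 1 and fell without any 1 other library compared, over Lx elements and over all features alike. Without ESC replicate 1 or 2 the median difference was 11.8 or 1.74 points over Lx elements, and 2.55 or 0.753 points over all features. The second count fell without any 1 of the 4 libraries compared, again over Lx elements and over all features. The median difference from the stem cells was 6.44 points over Lx elements, 4.49 over all repeat entries and 1.26 over all features in ESC-PGCLCs. In pESC-PGCLCs it was 3.12, 1.62 and 0.566 points. Among features with a mean level of at least 5%, Lx had 6.46 points against 6.24 over all features in ESC-PGCLCs, and 3.14 against 3.18 in pESC-PGCLCs. The shares of Lx elements called, 14.4% and 8.96%, were close to those of all features.

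The size of the change differed among subfamilies. Relative to the stem cells, Lx8b and Lx8 had the largest differences with all libraries in use. The Lx8b mean was 11.4 points higher in ESC-PGCLCs, or 17.05 and 5.69 points without ESC replicate 1 or 2, and 8.22 points higher in pESC-PGCLCs. The Lx8 mean was higher by 11.2 and 7.87 points. Lx6, the subfamily with the highest mean in both kinds of stem cell, was among those with the smallest differences, at 4.54 points in ESC-PGCLCs and -0.845 points in pESC-PGCLCs. Without ESC replicate 1 or 2 the first was 9.87 or -0.785 points, and without pESC replicate 1 or 2 the second was 1.20 or -2.89 points, so that both signs rested on single libraries. It had 57.9% and 47.2% in ESCs, 57.2% and 57.0% in ESC-PGCLCs, 54.4% and 50.3% in pESCs, and 51.7% and 51.4% in pESC-PGCLCs. Lx6 had 65.4% and 67.1% at E9.5, then 45.3% and 44.2% at E12.5, and the highest mean over all 12 libraries (54.1%). Lx4A was next (53.3%). It had 56.9% and 44.9% in ESCs, 50.8% and 46.8% in pESCs, 66.9% and 65.5% at E9.5, 45.5% and 47.9% at E12.5, 54.8% and 56.3% in ESC-PGCLCs against 52.1% and 51.2% in pESC-PGCLCs. The lowest means over 12 libraries were those of Lx2A1 (46.5%) and Lx (46.9%). Lx2A1 had 44.0% and 39.1% in ESCs, 42.9% and 41.9% in pESCs, 48.6% and 49.3% in ESC-PGCLCs against 46.7% and 44.9% in pESC-PGCLCs. Lx had 45.5% and 37.0%, 42.2% and 41.4%, 49.7% and 50.3%, and 46.0% and 45.9% in the same groups.

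Some Lx elements had little methylation in the stem cells and a higher mean level in PGCs and PGCLCs. Under 20% in all 4 ESC and pESC libraries lay 68 elements, picked by that level, with means between 7.06% and 9.74%. The same elements had 52.3% and 51.7% in E9.5 PGCs, 32.2% and 31.2% in E12.5 PGCs, 36.7% and 37.3% in ESC-PGCLCs against 33.0% and 32.8% in pESC-PGCLCs. Each of these means was below the mean of all Lx elements in the same library. The share of all repeat entries under the same limit was not counted. Of the 288 elements with Lx8 names 11.8% were among them, against 1.91% of the 209 with Lx3 names. Of the 68, 41 had at least 50% in both E9.5 libraries, and 8 were under 20% in all 12 libraries.

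Lx5b:18-712, which covers the 5′ end of Lx5b, had 8.33% and 11.1% in ESCs and 7.91% and 11.1% in pESCs. It had 84.1% and 84.0% at E9.5, 62.3% and 67.8% at E12.5, 70.9% and 70.3% in ESC-PGCLCs against 62.1% and 60.6% in pESC-PGCLCs. The stem cell libraries were all far below the 8 others. By limma with Benjamini-Hochberg adjustment it was called in both inductions, with an adjusted p of 9.3e-05 from ESCs and 0.00021 from pESCs. Lx5b:315-1194, which overlaps that stretch, went the other way. Its levels were 69.9% and 52.5% in ESCs, and 61.8% and 55.9% in pESCs. E12.5 PGCs had only 21.6% and 5.56% there and were called lower than ESCs, a difference of -47.6 points. Both E9.5 libraries (62.7% and 57.8%) lay between the ESC libraries. PGCLC libraries had 38.6% to 47.2%. Lx5b:18-712 therefore does not stand for the 5′ end of Lx5b as a whole. Lx8:6616-7031 had between 1.85% and 3.06% in the stem cell libraries and 82.9% and 82.7% at E9.5, the largest difference from ESCs of any Lx element. It had 44.7% and 60.2% at E12.5, 54.3% and 54.8% in ESC-PGCLCs against 56.1% and 55.8% in pESC-PGCLCs.

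A reverse rule set conditions on all 12 libraries, and not on the stem cell libraries alone. Lx4A:6629-6781 alone was under 20% in all 8 PGC and PGCLC libraries and above 20% in every stem cell library. It had 40.3% and 25.3% in ESCs, 31.8% and 28.9% in pESCs, and between 1.45% and 12.7% elsewhere. The numbers of elements picked by these unlike rules are not comparable. Lx6:6901-7284 missed the reverse rule with 0% and 37.0% at E9.5. Its group means were 52.6% in ESCs, 55.8% in pESCs and between 5.56% and 18.5% elsewhere. Of the 8 elements under 20% everywhere, Lx9:6898-6967 had between 0.485% and 6.43%. At the other end, Lx4A:5989-6032 and Lx8:6499-6716 were the only Lx elements above 80% in all 12 libraries. Both had lower levels at E12.5 than at E9.5, going from 96.9% and 94.8% to 82.6% and 81.7% in Lx4A:5989-6032, and from 98.8% and 98.3% to 82.2% and 81.0% in Lx8:6499-6716.

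Against ESCs, Lx in E9.5 PGCs was 19.3 points higher, and 14.4 or 24.2 points higher without ESC replicate 2 or 1. limma called 787 elements higher and 10 lower, where 42.9% of all features were called (42.1% higher and 0.892% lower). The calls took in 67.4% of Lx elements, against 61.1% of repeat entries. After centring the direction turned, to 100 higher and 356 lower, and over all 133311 features to 11294 higher and 72682 lower. Without centring, the count of calls rose without ESC replicate 1 and fell without ESC replicate 2, over Lx elements and over all features. With the groups compared alone 504 Lx elements were called, and 43564 of all 138776 features. In E12.5 PGCs the mean was 1.73 points lower than in ESCs and the libraries overlapped. There 101 elements were called higher and 141 lower, where 17.2% of all features were called (10.2% higher and 6.99% lower). This split depended on single libraries. It was 216 higher and 76 lower without ESC replicate 1 and 88 higher and 353 lower without ESC replicate 2. It was 75 and 60 without E12.5 replicate 1, 73 and 65 without E12.5 replicate 2, 55 and 19 with the groups compared alone, and 65 and 567 after centring. Of all 133311 features, centring gave 7443 higher and 35676 lower in E12.5 PGCs than in ESCs. Across elements, ESC levels correlated with pESC levels at Pearson's r = 0.95 (1183 elements, group means), with E12.5 levels at 0.56 and with E9.5 levels at 0.55. E9.5 levels correlated at 0.80 with E12.5 and at 0.84 with each kind of PGCLC. The elements of a library share its depth and preparation, so these values describe the libraries only.

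The last comparison asked whether the parthenogenetic origin left a difference on Lx elements. None of the 1183 was called between pESCs and ESCs by limma, and 15 had an unadjusted p under 0.05, while 0% of all 148012 features were called. With ESC replicates this far apart, only large differences could be called, so that the count of 0 does not show that the levels were alike. The other limma settings that kept every library also gave 0 calls, with 12 to 44 elements below 0.05 before adjustment. Without pESC replicate 1 or 2 a few Lx elements were called, at a smaller share than over all features. Without either ESC library no feature of any kind was called. The median Lx difference was -1.87 or 0.305 points without pESC replicate 1 or 2, and 3.84 or -5.35 points without ESC replicate 1 or 2. The largest subfamily difference was that of Lx3_Mus, at -2.84 points, or 1.62 and -7.30 points without ESC replicate 1 or 2. It had 51.2% and 42.3% in ESCs and 45.5% and 42.3% in pESCs, so that the libraries overlapped, as they did in all 21 subfamilies. In the other groups Lx3_Mus had 63.8% and 65.3% at E9.5, 43.2% and 44.4% at E12.5, 52.2% and 54.0% in ESC-PGCLCs against 49.2% and 50.1% in pESC-PGCLCs. Next was Lx4A, at -2.11 points, with the values given above.

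Between PGCLCs the difference was clearer in the mean than in single elements. The Lx mean was 3.99 points lower in pESC-PGCLCs than in ESC-PGCLCs, and all 21 subfamilies were lower without overlap of the libraries. All repeats shared this difference, with a median of -3.59 points over all repeat entries against -3.80 over Lx elements, and relative to the mean of all repeats the Lx mean differed by -0.268 points. The differences ranged from -1.65 points in Lx3C to -5.58 points in Lx6. Lx9 was second, at -5.30 points, with 53.4% and 54.0% in ESC-PGCLCs against 48.5% and 48.3% in pESC-PGCLCs. Of the elements, 978 had a lower mean in pESC-PGCLCs and 205 a higher one. limma called none of them, although 265 were below 0.05 before adjustment. The smallest p after Benjamini-Hochberg adjustment in limma was 0.0640. Of all 137202 features 0.0948% were called (0.0445% higher and 0.0503% lower). With an offset of 0.1, 22 Lx elements were called, of which 21 were lower, and on untransformed levels 32 were called, of which 31 were lower. Of all 137202 features these settings called 1337 (1170 lower) and 1771 (1590 lower), so the rise was not particular to Lx. With centring, 0 Lx elements were called. That smallest p was shared by Lx9:7231-7427 and Lx8:6808-7219, the latter with 81.3% and 80.7% in ESC-PGCLCs against 66.9% and 64.4% in pESC-PGCLCs.

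The test of the difference between the inductions, from pESCs and from ESCs, called no Lx element either. Of all 136848 features it called 0.0365% (0.0183% higher and 0.0183% lower). It gave 33 Lx elements with an unadjusted p under 0.05 in limma. In the other settings that kept every library it gave between 26 and 62, and called no Lx element. Without ESC-PGCLC replicate 1 it called a few Lx elements, and the count over all features rose too. The median Lx difference was -3.12 points there, against -3.06 points with every library. In the Lx mean the difference between the inductions was -3.06 points, the change from pESCs being the smaller. This value was -7.94 without ESC replicate 1 and 1.83 without ESC replicate 2.

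Lx was set beside the other L1 lists. The young list held 7438 elements of the L1MdA, L1MdTf and L1MdGf names, the older L1Md list 7149 of the L1MdF, L1MdV, L1MdN and L1MdMus names, and the list of ancient L1M names 609. The mean difference of Lx from the young L1Md list was -6.54 points and from the older L1Md list -4.99 points, and Lx was the lower list in 12 of 12 libraries in both. The exact two-sided sign-flip permutation test over the 12 libraries gave p = 0.000488 for both, which is the smallest it can give. These libraries are replicates of 6 groups and not of 1 condition. Against the ancient L1M list the difference was -0.490 points, with Lx higher in 5 libraries and lower in 7 (exact sign-flip permutation p = 0.345). With medians in place of means it was -1.42 points (exact sign-flip permutation p = 0.0327). Lx was the higher list in both pESC and both E12.5 libraries and in ESC replicate 2. The group means of this difference were 0.912 points in ESCs, 1.05 in pESCs, -2.99 at E9.5, 0.834 at E12.5, -1.66 in ESC-PGCLCs and, for pESC-PGCLCs, -1.09.

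The lists also differed in the fall between the PGC stages. Of the E9.5 level, 73.9% was left at E12.5 in young L1Md elements, 72.1% in older L1Md, 67.1% in Lx and 62.9% in ancient L1M. Lx was 3.50 points under the young list at E9.5 and 6.97 points under it at E12.5. The libraries of the 2 stages did not overlap in this gap, and the exact two-sided permutation p was 0.333, the smallest that 2 against 2 can give. The 314 elements named L1Lx, which are not Lx by name and were not counted here, kept 68.8%.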

How the data were processed

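Each deposited file lists, for 1 library, the methylated fraction of CpG sites in each annotated feature (0 to 1), which the authors computed as methylated calls over all calls and corrected for non-conversion. The submitters' processing notes name Bismark 0.16.3, Bowtie2 and the build mm10. Identical reads at 1 place were regarded as duplicates, and whether they were left out of the levels is not given in the sources used here. The coverage minimum and the source of the repeat annotation are not given in the sources used here. Levels are printed as percentages and differences in percentage points.

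Features were tested with limma 3.58.1 (R 4.3.3) on log2((fraction + 0.01) / (1 - fraction + 0.01)), where 0.01 is the offset. P-values were adjusted by Benjamini-Hochberg over all features measured in each library of the fit. A call needed an adjusted p under 0.05 and at least 10 points. The fits held the 4 ESC and pESC libraries, the 8 PGC and PGCLC libraries, the 8 stem cell and PGCLC libraries, or all 12 for PGCs against ESCs. Each fit assumed 1 spread per feature for all its groups, although the ESC replicates differed more than the others. The inductions were not also fitted with the groups compared alone. Lx means were compared by exact permutation over libraries. No count model could be used, since the files hold no counts, and the depth of each library is unknown. The limma script was tested on simulated data. Alternatives were another offset, untransformed levels, other fits and filters, centring, a replicate block, and leaving out each library.

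The Lx members, the other L1 lists and the tests were chosen with earlier results of these data known. Values in all libraries are given for the subfamilies with the 2 highest and 2 lowest means, the 2 largest and 2 smallest changes between PGC stages and the 2 largest differences between origins in stem cells and in PGCLCs. Single elements were picked after their values were seen, by the largest changes, the highest and lowest levels, or a call in the rarer direction. Subfamilies were grouped only by the number in their name. No Lx sequence or genome position is printed, since neither was read here. Other values and plots used Python 3.11.15, numpy 2.4.6, pandas 2.3.3 and matplotlib 3.10.9.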

Additional observations from a re-analysis of the deposited data

How the results depend on the processing

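The depth behind each level is unknown, each group has 2 libraries, and the ESC replicates differ most, so the comparisons with ESCs are the least certain. The fall of Lx from E9.5 to E12.5 kept its direction under every alternative tried, and its 1009 calls became 945 to 962 without 1 library. The cause of the changes listed here was not tested.

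Centring on the library median gave 244 calls for E12.5 against E9.5 PGCs, 101 and 158 for ESC-PGCLCs and pESC-PGCLCs against E9.5, and 93 and 14 against E12.5. The calls of 3 comparisons turned direction with it, with 416 for ESC-PGCLCs against ESCs, 378 for pESC-PGCLCs against pESCs and 456 for E9.5 PGCs against ESCs, while E12.5 PGCs against ESCs had 632. The centred counts over all features are given above with each of these comparisons. The fit of all 12 libraries gave 362 and 172 calls for ESC-PGCLCs against E9.5 and E12.5 PGCs, 7 for pESC-PGCLCs against E12.5, 1 between the PGCLCs and 162 for pESC-PGCLCs against pESCs. Of all 133311 features it called 29191, 13297, 619, 85 and 16435 in the same order. With the groups compared alone, E9.5 and E12.5 PGCs against ESCs had 504 and 74, the second with its direction turned. Over all features these fits called 43564 of 138776 and 11168 of 140037. Between the PGCLCs, the offset of 0.1 gave 22, untransformed levels 32 and a mean level of at least 5% gave 5. Over all features tested these settings called 1337, 1771 and 348.

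Leaving out 1 library gave 0 to 3 calls for pESCs against ESCs, between the PGCLCs and for the difference between the inductions, 1 to 19 for pESC-PGCLCs against E12.5 PGCs, 86 to 442 for ESC-PGCLCs against ESCs, 49 to 74 for pESC-PGCLCs against pESCs, and 135 to 441 for E12.5 PGCs against ESCs. The Lx mean difference then ran from -5.81 to 3.95 points for pESCs against ESCs, from -7.94 to 1.83 for the difference between the inductions, and from -6.61 to 3.15 for E12.5 PGCs against ESCs. In these fits the lone sample of a group is assumed to vary like the others. Where the Lx counts moved in them, the counts over all features moved the same way.

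With the median over elements the Lx difference was -23.0 points for E12.5 against E9.5 PGCs, -12.6 and -17.0 for ESC-PGCLCs and pESC-PGCLCs against E9.5, 10.4 for ESC-PGCLCs against E12.5 and 3.64 for pESC-PGCLCs against pESCs. With all elements listed in each library it was -20.6 for the PGC stages and 9.58 for ESC-PGCLCs against E12.5. Relative to the mean of all repeats little was left, namely -0.907 points between the PGC stages, -0.442 and -0.710 against E9.5, 0.465 and 0.197 against E12.5, -0.268 between the PGCLCs, 0.278 and 0.478 for the inductions, 0.201 for their difference, whose sign turned, and 0.720 for E9.5 PGCs against ESCs. The gap to ancient L1M elements was -1.42 points with medians (exact sign-flip permutation p = 0.0327) and -1.27 points over the names listed in each library (p = 0.0200).

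Replicate numbers are shared by all groups, but the labels do not say that they pair libraries. The correlation of replicate deviations over Lx elements was 0.372 between ESCs and pESCs and between -0.0970 and 0.149 in the other pairs of groups. With the replicate block, 88 Lx elements were called between pESC-PGCLCs and E12.5 PGCs in place of 139. For the PGC stages the block gave 1021 calls and a mean difference of -21.1 ± 0.348 points (SD of 2 paired differences). It moved no other count of calls by over 1.5 times.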
